A study of Mus musculus with 10 samples.

Results

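Low-CD4 T cells and CD4 CD8 double-positive T cells from the spleens of mice homozygous for the OB11 allele were compared by RNA sequencing, with 2 libraries of each. They are 4 of the 10 libraries of the study, chosen by their sample titles, and all genes of the count table were used. CD4lo stands for the OB11/OB11 cells with low CD4, and DP for the OB11/OB11 cells with both CD4 and CD8. The other libraries, 2 in each group, are CD4 cells of wild-type mice (WT CD4), CD8 cells of wild-type mice (WT CD8) and OB11/OB11 cells with high CD4 (CD4hi). All 10 came from spleen at 6 weeks of age and were sorted as naive T cells, with gates that included presence of TCRb and absence of CD25 and CD44. The gates on CD4 and CD8 then set the groups, so Cd4, Cd8a and Cd8b1 differ by the sort, and Il2ra and Cd44 encode other gated proteins. The study's title concerns a regulatory loop of ThPOK, the factor encoded by Zbtb7b, and what the OB11 allele changes is not stated in the labels. They also do not say whether the libraries of a group came from separate animals, so p-values here measure only the spread between libraries. The titles of the CD4lo and WT CD4 libraries carry a mark L that the other 6 do not. Its meaning is not given, and between CD4lo and DP it coincides with the group, so the effects of mark and group cannot be told apart.

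Mature T cells of the alpha beta lineage normally keep either CD4 or CD8. ThPOK maintains the CD4 helper fate and Runx3 the CD8 cytotoxic fate, and each represses genes of the other. A few T cell types sit outside this division. Innate-like T cells (gamma delta T cells, NKT and MAIT cells) acquire effector programs during their development and often lack both coreceptors. Regulatory T cells, marked by Foxp3, and follicular helper T cells, marked by Cxcr5 and Bcl6, are specialised CD4 cells.

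CD4lo cells had higher transcripts of gamma delta T cells than DP cells, namely gamma delta receptor segments and the scavenger receptors these cells express. The type 17 genes Il23r and Il1r1 and several NK-type receptors were also higher. Markers of NKT and MAIT cells gave no common direction. DP cells had higher transcripts of regulatory and follicular helper T cells, such as Foxp3, Lrrc32, Tigit, Tox2, Il21 and Cxcr5, and higher transcripts of B cells and macrophages. Of 12193 genes tested with edgeR's quasi-likelihood test, 755 (6.19%) were called at an adjusted p under 0.05. Of these, 311 (2.55% of genes tested) were higher in CD4lo and 444 (3.64%) lower. The fold reached 2 for 389 of them (3.19%), of which 137 (1.12%) were higher and 252 (2.07%) lower, and it reached 4 for 220. Leaving out a library gave 429 calls without CD4lo 1, 476 without CD4lo 2, 418 without DP 1 and 371 without DP 2. In the same order 189, 201, 160 and 152 genes were then higher, and 240, 275, 258 and 219 lower. Both CD4lo libraries lay above or below both DP libraries for 5871 genes (48.2%), and for each of the 755 called genes.

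Total counts were 7417789 and 5129677 in CD4lo 1 and 2, and 6511952 and 7174290 in DP 1 and 2. Levels below are CPM (counts scaled to a common library size) after TMM scaling, given as library 1 and library 2 of a group, with a floor of 3 counts at 0.402 to 0.587 CPM in the 10 libraries, and changes are log2 fold changes of CD4lo over DP ± SE from the fit, n = 2 libraries per group. The median change over all tested genes was -0.006. Counts of a gene differed between the CD4lo libraries and between the DP libraries by a mean chi-square per gene of 8.14 and 3.48, where counting error alone would give about 1. The 12 general T cell markers, such as the CD3 chains, were present in all 4 libraries, with summed levels of 2840 and 3100 CPM in CD4lo and 3080 and 3160 CPM in DP.

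The L mark was followed by 207 of the 755 called genes (27.4%): the 4 marked libraries, WT CD4 included, lay all above or all below the other 6. Among all tested genes 590 (4.84%) did so. A gene can follow the mark only where the CD4lo and DP libraries do not overlap. That held for all 755 called genes but for 5871 (48.2%) of the tested genes, so the shares are not directly comparable. Of the 207 genes, 77 were higher in CD4lo and 130 lower, and 127 were not listed as protein coding. Metazoa_SRP, the symbol of the signal recognition particle RNA, stood at 170 and 126 CPM in CD4lo and at 3550 and 2910 CPM in DP (-4.44 ± 0.17). The WT CD4 libraries, which carry the mark, had 128 and 133 CPM. The gene model Gm10132 behaved in the same way, with 1.21 and 1.17 CPM in CD4lo against 250 and 277 CPM in DP (-7.76 ± 0.23). Without the 590 genes 487 genes were called, 205 higher and 282 lower. Genes named below that follow the mark are identified as such, and the lists of genes used below share some members. For each list count below, the share over all tested genes is 2.55% rising and 3.64% falling.

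**Figure D1:**
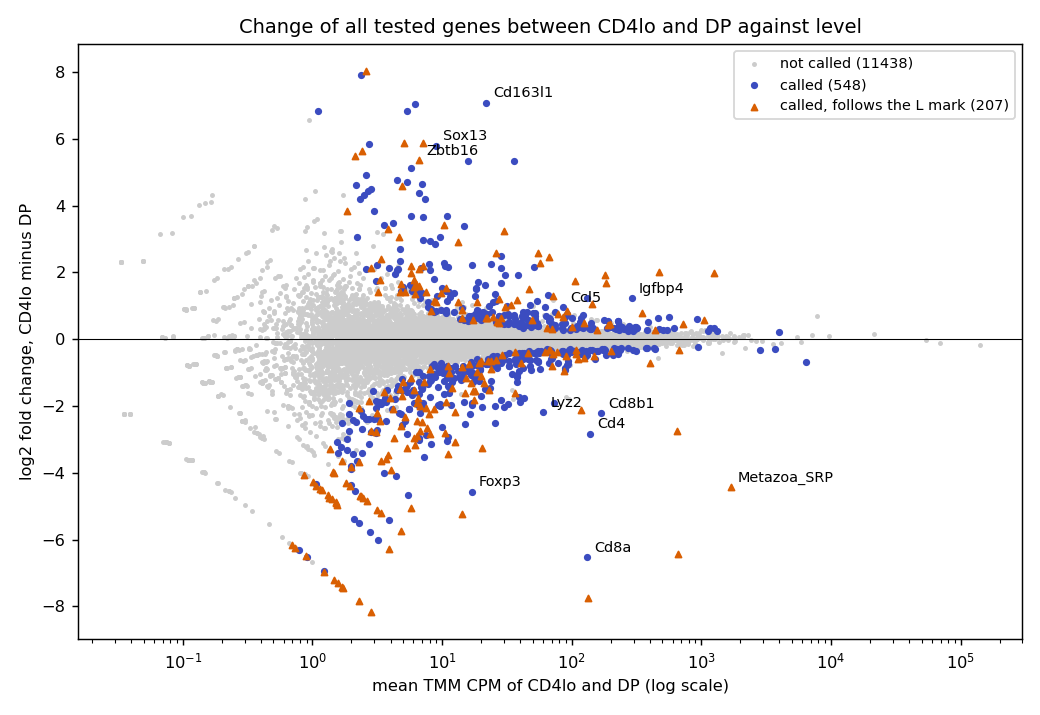
Change of each of the 12193 tested genes (log2 fold change of CD4lo over DP, y axis) against its mean level in the 4 libraries (TMM CPM, log scale, x axis). Grey dots are genes not called, blue dots are called genes, and orange triangles are the 207 called genes that follow the L mark, among them Metazoa_SRP at a high level and a change of -4.44.

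The coreceptor genes differed as the sort requires. Cd4 stood at 33.2 and 34.9 CPM in CD4lo and at 235 and 249 CPM in DP, a change of -2.83 ± 0.13. Cd8a, the CD8 alpha chain, stood at 2.95 and 2.55 CPM in CD4lo against 256 and 260.0 CPM in DP (-6.53 ± 0.22). Cd8b1, the CD8 beta chain, was less far apart, with 55.8 and 65.2 CPM in CD4lo and 276 and 281 CPM in DP (-2.21 ± 0.10). The CD4lo libraries thus lay below the DP libraries for all 3 coreceptor genes, and for Cd8b1 they lay above the mean of the CD4hi libraries of 22.4 CPM. Zbtb7b, which encodes ThPOK, was not called: its levels of 9.38 and 8.62 CPM in CD4lo and 7.05 and 9.18 CPM in DP overlapped (0.15 ± 0.16, edgeR adjusted p = 0.752). Its change was -0.01 without DP 1. Runx3 stood at 259 and 253 CPM in CD4lo and at 218 and 201 CPM in DP, a change of 0.29 ± 0.08 (edgeR adjusted p = 0.0338). That call was lost when any of the 4 libraries was left out and in edgeR's likelihood ratio test.

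Of the 10 genes listed for the CD4 lineage, 4 fell in CD4lo and none rose (median -0.28): Cd4, Icos, Tnfrsf4 and Tnfsf8, the last following the L mark and lost without CD4lo 2 or DP 2. Gata3, a factor of helper cells, was among the 6 that were not called, at 0.10 ± 0.10. Of 16 CD8 lineage genes 6 rose and 3 fell (median 0.23), the falls being both CD8 chains and Itgae, the CD103 integrin chain (-0.95 ± 0.09, following the L mark). Ly6c2, a surface antigen of CD8 cells, rose from 20.4 and 16.7 CPM in DP to 74.9 and 91.0 CPM in CD4lo (2.16 ± 0.13). Ccl5, a chemokine of cytotoxic and memory T cells, rose from 57.8 and 58.6 CPM to 107 and 119 CPM (0.95 ± 0.09). Among 40 lineage transcription factors 6 rose and 6 fell, with a median of 0.00. Sox13 and Zbtb16 passed the filter on low counts only through the CD4lo libraries, as explained below. Of the other 38 genes 4 rose and 6 fell. The rises included Sox13, Zbtb16, Id2, Klf2 and Runx3, and the falls were Tox2, Hivep3, Ikzf2, Bcl6, Tox and Tcf7. The calls of Klf2 and Tcf7 were lost when any of the 4 libraries was left out, and that of Bcl6 without CD4lo 1 or DP 1.

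**Figure D2:**
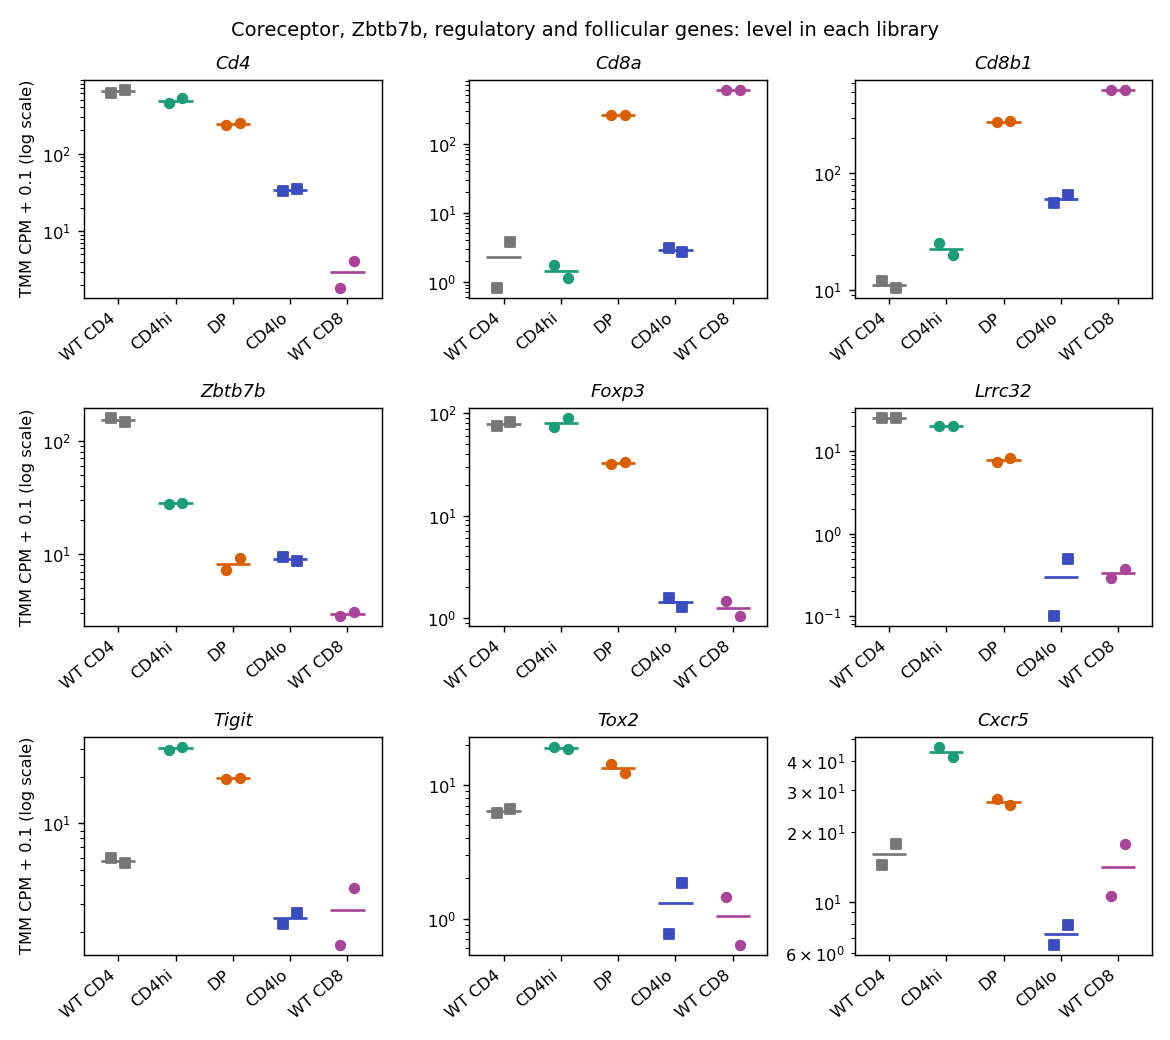
Level of 9 genes in each of the 10 libraries (TMM CPM plus 0.1, log scale, y axis) by group (x axis). Points are libraries, squares those whose titles carry the L mark, and bars the mean of 2 libraries. Cd4, Cd8a, Cd8b1, Foxp3, Lrrc32, Tigit, Tox2 and Cxcr5 lie lower in CD4lo than in DP, and the Zbtb7b levels of CD4lo and DP overlap.

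The promoters of 3 genes on which the comparison turns are shown: Cd8a, the most reduced coreceptor gene, and Cd163l1 and Il23r, each among the 15 largest rises under the rule for named genes. Each sequence is the 250 bases before the gene's start in RefSeq on GRCm38.p6, 5′ to 3′ on the gene's strand, at chr6:71373177-71373426 (plus strand) for Cd8a, chr7:140218017-140218266 (plus strand) for Cd163l1 and chr6:67491856-67492105 (minus strand) for Il23r. Capitals mark matches, on either strand, to AACAAT, letters bound by Sox factors, or AGGTCA, core letters bound by many nuclear receptors. TGTGGT, the letters bound by Runx factors, was searched too and has no match in the 3 windows.
Cd8a promoter: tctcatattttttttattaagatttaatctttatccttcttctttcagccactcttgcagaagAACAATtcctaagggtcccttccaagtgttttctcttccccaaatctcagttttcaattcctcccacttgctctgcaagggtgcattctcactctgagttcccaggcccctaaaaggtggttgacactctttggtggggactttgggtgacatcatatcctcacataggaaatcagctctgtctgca
Cd163l1 promoter: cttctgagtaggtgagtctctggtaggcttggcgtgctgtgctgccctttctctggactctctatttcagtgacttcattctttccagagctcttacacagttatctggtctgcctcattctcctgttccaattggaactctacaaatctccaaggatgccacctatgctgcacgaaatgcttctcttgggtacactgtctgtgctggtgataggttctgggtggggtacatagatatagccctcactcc
Il23r promoter: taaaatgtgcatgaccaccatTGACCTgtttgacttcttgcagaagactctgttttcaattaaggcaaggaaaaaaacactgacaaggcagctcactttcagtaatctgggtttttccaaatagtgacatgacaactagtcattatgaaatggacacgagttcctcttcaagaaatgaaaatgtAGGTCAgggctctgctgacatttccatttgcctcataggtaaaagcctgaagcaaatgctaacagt
The Il23r window holds AGGTCA 66 bases before the start on the gene's strand, and again 229 bases before it on the other strand. The Cd8a window holds AACAAT 187 bases before the start, and the Cd163l1 window has no match to any of the 3 motifs. The same window of Sox13, not shown, was searched too and has no match to any of them. Over all 32851 promoters in the table, 14% hold AGGTCA, 14% hold TGTGGT and 9.42% hold AACAAT. A match describes letters and does not show binding.

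Gamma delta T cell genes were among the largest rises. Cd163l1, a scavenger receptor also called SCART1, stood at 41.0 and 45.0 CPM in CD4lo and at 0.313 and 0.282 CPM in DP, a change of 7.08 ± 0.37 (edgeR adjusted p = 1.77e-08). Its neighbour 5830411N06Rik, a related scavenger receptor called SCART2, stood at 76.5 and 62.7 CPM against 2.35 and 1.13 CPM (5.33 ± 0.25). The genes lie next to each other on chromosome 7 (Cd163l1 at 140218267 to 140231145, 5830411N06Rik at 140247284 to 140300736, mm10), and how the counting divided reads between similar sequences is not given in the sources used here. Sox13, a transcription factor of gamma delta T cells, stood at 17.3 and 18.0 CPM in CD4lo and at 0.470 and 0.141 CPM in DP (5.80 ± 0.51). Blk, a Src family kinase of B cells and gamma delta T cells, rose from 2.51 and 2.68 CPM to 30 and 24.1 CPM (3.38 ± 0.26). For 5830411N06Rik and Blk the CD4lo libraries lay above all 8 other libraries of the study. They did so for Cd163l1 and Sox13 too. These genes passed the filter on low counts only through the CD4lo libraries, so that place was largely set by the filter.

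Segments of the gamma and delta receptor chains were higher as well. Tcrg-C1, the constant segment of a gamma chain, stood at 31.2 and 31.1 CPM in CD4lo against 0.784 and 0.706 CPM in DP (5.35 ± 0.36). The variable segment Tcrg-V4 had 154 counts over both CD4lo libraries and 1 count over both DP libraries, a ratio of 165 with a 95% counting interval from 29.2 to 6560. The delta variable segment Trdv5 had 135 counts against 1, a ratio of 145 (25.5 to 5750). Trdv4, another delta variable segment, rose by 5.14 ± 0.66 and Trgv2 by 3.07 ± 0.39. Tcrg-C2 was called at 3.83 ± 0.99, and that call was lost when any of the 4 libraries was left out. Of 20 listed gamma and delta segments, 17 are in the table, and 11 passed the filter on low counts, 10 of them only through the CD4lo libraries (fewer than 2 of the other 8 libraries reached the filter's level, 10 counts at the median library size). The 7 that rose are all among these 10, so the direction of the list is set by the filter and its count says nothing beyond the values given. The 6 that did not pass had at most 12 counts in a library.

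Of 10 gamma delta T cell markers 8 are in the table, and all 8 were tested. Of these, 5 passed the filter only through the CD4lo libraries and rose, and 2 of the other 3 rose, 5830411N06Rik and Blk. Etv5, the other, stood at 3.08 and 1.96 CPM in CD4lo and 4.54 and 5.08 CPM in DP (-0.90 ± 0.41, edgeR adjusted p = 0.271). The summed level of the markers was 215 and 201 CPM in CD4lo and 11.8 and 10.6 CPM in DP. The alpha beta receptor was present in the same libraries. Trac, the alpha constant segment, stood at 199 and 149 CPM in CD4lo and 232 and 254 CPM in DP, a change of -0.48 ± 0.12 that was no longer called without CD4lo 2, without DP 1 or without DP 2. Trbc1 and Trbc2, the beta constant segments, were not called (-0.23 ± 0.12 and -0.08 ± 0.12). None of the 36 tested alpha variable segments (median -0.21) and none of the 18 tested beta variable segments (median -0.17) was called by edgeR's quasi-likelihood test or by DESeq2, with 1 and 2 segments lower at an unadjusted p under 0.05. In bulk samples, fewer cells of a type and less RNA per cell cannot be told apart.

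**Figure D3:**
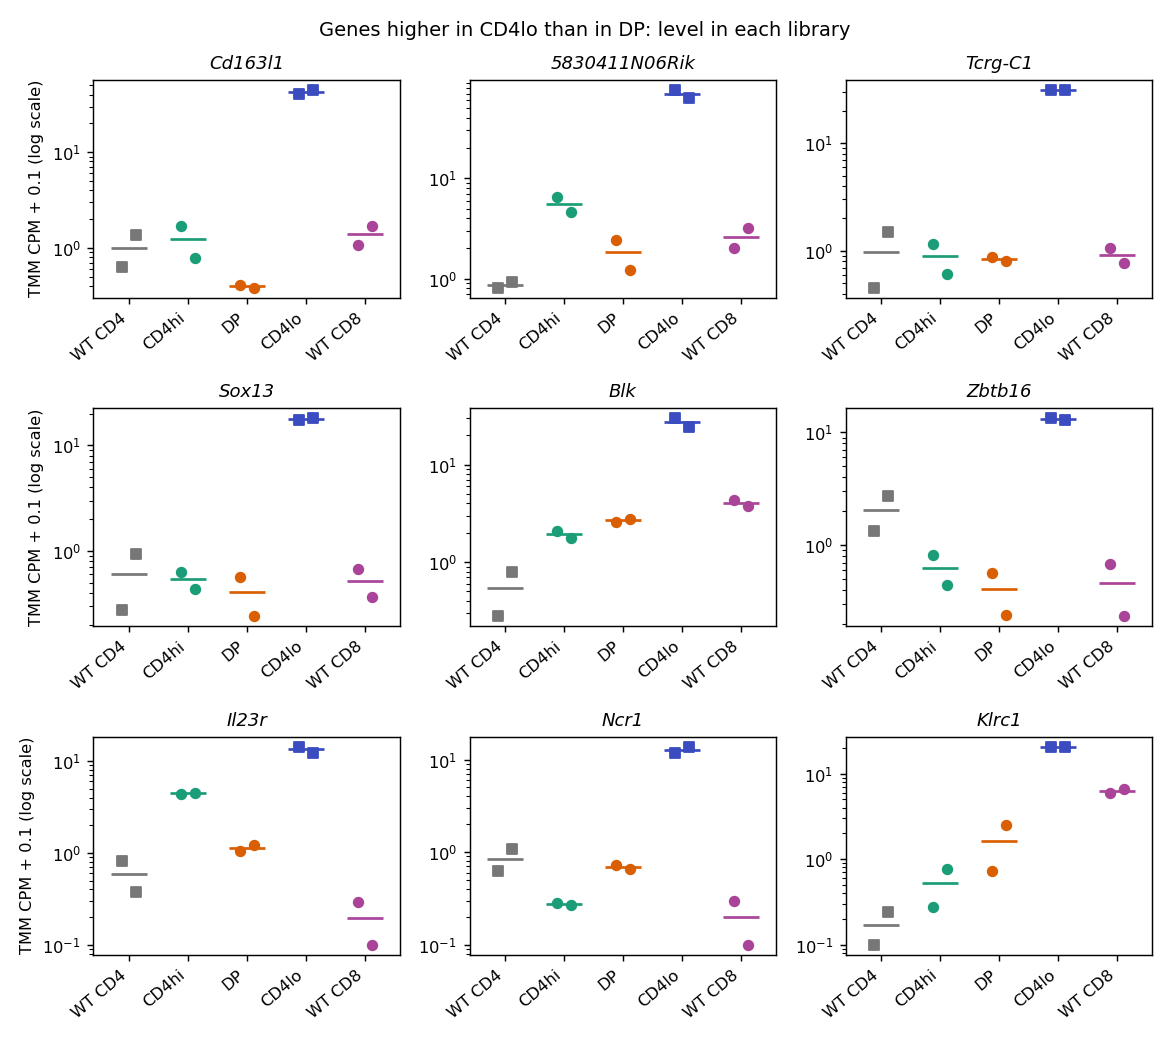
Level of 9 genes of innate-like T cells in each of the 10 libraries (TMM CPM plus 0.1, log scale, y axis) by group (x axis). Points are libraries, squares those whose titles carry the L mark, and bars the mean of 2 libraries. The CD4lo libraries are the highest for all 9 genes, which were chosen for being higher in CD4lo than in DP. Cd163l1, Tcrg-C1, Sox13, Zbtb16 and Ncr1 also passed the filter on low counts only through the CD4lo libraries. The shared direction is therefore set by that choice. For Il23r the CD4hi libraries come next.

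Type 17 genes formed the next group of rises. Il23r, the IL-23 receptor chain whose promoter is printed above, stood at 14.3 and 12.3 CPM in CD4lo and at 0.940 and 1.13 CPM in DP (3.66 ± 0.40). Il1r1, the IL-1 receptor, rose by 2.08 ± 0.31. The cytokine Il17a had 70 counts in CD4lo and 3 in DP, a ratio of 25 (8.21 to 124), and Il17f had 66 counts against 1, a ratio of 70.7 (12.3 to 2830). The fitted call of Il17a was lost when any of the 4 libraries was left out, and that of Il17f without CD4lo 1, CD4lo 2 or DP 1. Of 15 type 17 genes 14 were tested, 7 rose and 2 fell. Il17a, Il17f and Il17re passed the filter only through the CD4lo libraries. Of the other 11 genes 5 rose and 2 fell, against 2.55% and 3.64% of all tested genes. The falls were Il21, also a cytokine of follicular helper cells, and the factor Batf (-0.58 ± 0.15), whose call was lost when any of the 4 libraries was left out. Ccr6, the chemokine receptor of many type 17 cells, was not called (-0.63 ± 0.21, edgeR adjusted p = 0.107). The summed level of gamma delta T cell markers given above moved with these genes, and its part in their change was not tested.

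Zbtb16 encodes PLZF, the factor of NKT and other innate-like T cells. It stood at 13.3 and 12.7 CPM in CD4lo and at 0.470 and 0.141 CPM in DP (5.36 ± 0.58), and it followed the L mark, with 1.24 and 2.64 CPM in WT CD4. Other markers of NKT and MAIT cells gave no common direction. Traj18, the alpha joining segment used by NKT cells, was at 10.6 and 8.03 CPM against 7.37 and 6.92 CPM (0.40 ± 0.23, edgeR adjusted p = 0.413). Traj33, the joining segment of MAIT cells, was at 1.88 and 0.979 CPM against 1.10 and 1.41 CPM, and Trav1 had 2 counts against 8. Of 9 listed markers 8 are in the table, 6 were tested, 1 rose and 1 fell, the fall being Hivep3, a zinc finger factor (-1.76 ± 0.10). Zbtb16, the rise, and Klrb1c passed the filter only through the CD4lo libraries. Of the other 4 markers none rose.

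NK-type receptors rose where they were called. Ncr1, which encodes the NK receptor NKp46, stood at 11.7 and 13.7 CPM in CD4lo and at 0.627 and 0.565 CPM in DP (4.37 ± 0.50). Klrc1, which encodes NKG2A, an inhibitory receptor, stood at 20.2 and 20.6 CPM against 0.627 and 2.40 CPM (3.70 ± 0.39). Klrk1, which encodes the activating receptor NKG2D, rose from 8.15 and 8.33 CPM to 40.9 and 38.2 CPM (2.26 ± 0.17). Klrd1, the CD94 partner chain of NKG2 receptors, rose by 1.61 ± 0.15. Klra7, a Ly49 receptor, had 60 counts in CD4lo and none in DP, at least 21.4-fold higher against a floor of 3 counts over the group, and its call was lost when any of the 4 libraries was left out. Of 32 listed receptors and adaptors 20 were tested, and 7 of these passed the filter only through the CD4lo libraries, among them Klra7, Ncr1 and Klre1, which rose. Of the other 13 genes 4 rose and none fell, against 2.55% of all tested genes that rose. The count of 7 rises in all was 4 without DP 2, and the Klra genes are near-identical copies among which reads may be shared.

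Other markers of NK cells rose in part. Of 10 NK cell markers 7 were tested and 3 rose, Ncr1, Klre1 and Gzma, with the call of Klre1 lost when any of the 4 libraries was left out. Ncr1 and Klre1 passed the filter only through the CD4lo libraries. The other 4 were not called. Tyrobp and Fcer1g, adaptor chains abundant in NK cells, had values of 0.70 ± 0.50 and 1.08 ± 0.55, and Klrb1c, which encodes the NK1.1 antigen, 4.31 ± 1.23 (edgeR adjusted p = 0.0578). Eomes, a T-box factor of NK and CD8 cells, was at 50.4 and 39.2 CPM against 34.3 and 36.9 CPM (0.34 ± 0.12, edgeR adjusted p = 0.141). The summed level of the NK cell markers was 94.5 and 93.6 CPM in CD4lo and 42.8 and 50 CPM in DP, Klra4, Klra8 and Klra9 were at 0 in DP and had 1 count each in CD4lo, and their part in the result was not tested.

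The cytotoxic genes did not move as a group: of 17 tested, 2 rose and 2 fell (median 0.05). Gzma, a granzyme of innate-like and cytotoxic cells, rose from 2.98 and 4.52 CPM to 14.9 and 20 CPM (2.19 ± 0.35), and Fasl, the death ligand, rose by 1.35 ± 0.30 and followed the L mark. Gzmk, a granzyme of memory CD8 cells, fell from 11.1 and 10.3 CPM to 0.938 and 1.96 CPM (-2.95 ± 0.45), also along the L mark. Prf1, perforin, was at 55.5 and 51.7 CPM in CD4lo and 50 and 57.5 CPM in DP, so its groups overlapped. The calls of Fasl (without CD4lo 1, DP 1 or DP 2) and of the fourth gene, Cst7 (without CD4lo 1, CD4lo 2 or DP 2), were lost.

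Of 9 tested type 1 helper genes 3 rose and 1 fell (median 0.30). Il18r1 and Il18rap, the chains of the IL-18 receptor, stood at 186 and 182 CPM against 84.9 and 72.6 CPM (1.23 ± 0.09), and at 52.9 and 39.7 CPM against 12.4 and 9.04 CPM (2.13 ± 0.29). Il12rb2, the IL-12 receptor chain, was called at 1.96 ± 0.53, a call lost when any of the 4 libraries was left out. Cxcr3, a chemokine receptor of type 1 cells, fell by 1.01 on the log2 scale, followed the L mark and lost its call without DP 2. Tbx21, which encodes T-bet, was at 12.6 and 12.7 CPM in CD4lo and 11.1 and 13.3 CPM in DP and was not called. Among 7 tested type 2 helper genes 1 rose and 1 fell (median 0.11). Gpr44, the older symbol of the prostaglandin D2 receptor gene Ptgdr2, rose from 0.470 and 0.282 CPM to 8.98 and 11.7 CPM (4.72 ± 0.62), and Ccr4 fell by 0.97 on the log2 scale, a call lost when any of the 4 libraries was left out. Gpr44, the rise, passed the filter only through the CD4lo libraries.

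Genes of memory and activated T cells were mostly higher in CD4lo: of 25 tested, 16 rose and 3 fell (median 0.60). Over all tested genes 2.55% rose and 3.64% fell. Ccr2, a chemokine receptor of inflammatory and innate-like cells, rose from 10.2 and 7.34 CPM to 54.7 and 42.1 CPM (2.48 ± 0.23). Cxcr6, a receptor of tissue-resident and NKT cells, rose from 13.5 and 12.4 CPM to 49.2 and 48.0 CPM (1.91 ± 0.18). S100a4, a calcium-binding protein of memory cells, rose by 1.5 ± 0.20, and Ahnak, a large scaffold protein, by 0.67 ± 0.08. Cd44, whose protein was gated out, stood at 92.1 and 97.7 CPM against 79.6 and 76.1 CPM (0.28 ± 0.08, edgeR adjusted p = 0.0381). The calls of Cd44 and Itgb1 were lost when any of the 4 libraries was left out, and that of Itga4 in each case but without CD4lo 1. Most of these rises were small, and the count of 16 was 8 without CD4lo 2, 8 without DP 1 and 9 without DP 2. The falls were Cxcr3 and the integrin chains Itgb1 (-0.40 ± 0.08) and Itga4 (-0.29 ± 0.07), and the count of falls was 1 without CD4lo 2, 1 without DP 1 and 0 without DP 2.

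Of 18 genes of naive and quiescent T cells 6 rose and 2 fell (median 0.06). Igfbp4, a binding protein of insulin-like growth factors that marks naive CD4 cells, stood at 389 and 426 CPM in CD4lo and 174 and 175 CPM in DP (1.22 ± 0.08). Il7r, the IL-7 receptor, rose by 0.77 ± 0.07 and followed the L mark, and S1pr1, the receptor for exit from lymphoid organs, rose by 0.38 ± 0.07. The call of S1pr1 was lost without DP 1 or DP 2. Tcf7 and Actn1 fell, by 0.23 and 0.27 on the log2 scale, and both calls were lost when any of the 4 libraries was left out. Bcl2, the survival factor, rose from 185 and 183 CPM to 276 and 265 CPM (0.56 ± 0.07). Among 14 tested genes of the Bcl2 family it was the 1 rise, and Bmf and Pmaip1, which promote cell death, were the 2 falls (median -0.22). Pmaip1 followed the L mark, and its call was lost when any of the 4 libraries was left out, that of Bmf without DP 2.

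Chemokine and homing receptors split, with 7 of 19 tested rising and 4 falling (median 0.11). Beside Ccr2, Cxcr6 and S1pr1, the rises included Gpr183, a follicle-positioning receptor (0.74 ± 0.10, following the L mark). Ccr9, the receptor for homing to thymus and small intestine, fell from 112 and 118 CPM to 67.3 and 67.6 CPM (-0.77 ± 0.10), and Cxcr5 fell as described below. Without DP 2 the counts were 4 rising and 2 falling. Of 16 tested integrin chains 3 rose and 5 fell (median 0.02). Itgb8, an integrin chain of regulatory T cells that activates TGF-beta, had 1 count in CD4lo and 86 in DP, a ratio of 80.3 in favour of DP (14.0 to 3210). Itga5 rose by 1.63 ± 0.32 (lost without CD4lo 1 or DP 2) and Itgb3 by 0.57 ± 0.08, along the L mark. The integrin rises numbered 1 without CD4lo 1 and 1 without DP 2, and the falls 3 without CD4lo 1 and 2 without any other of the 4 libraries. With library totals as the scale, or in the likelihood ratio test, 3 integrin falls were called.

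Among 34 cytokine receptors and suppressors 8 rose and 2 fell (median 0.15). The rises include Il18rap, Il18r1, Il23r, Il1r1 and Il7r, and also Ifngr1, the interferon gamma receptor, at 133 and 156 CPM against 91.5 and 92.4 CPM (0.65 ± 0.10). The falls were Il1r2, the IL-1 decoy receptor, with 1 count in CD4lo and 61 in DP, a ratio of 57.0 in favour of DP (9.84 to 2290), and Il9r (-2.40 ± 0.49, lost without CD4lo 2 or DP 2). Of 12 tested chemokines and cytokines Ccl5 rose and Csf1 fell (-2.70 ± 0.47). Of 19 genes of intraepithelial lymphocytes, the T cells of the gut lining, 4 rose and 3 fell (median 0.02). Cd244, Fcer1g and Klre1 passed the filter only through the CD4lo libraries, and of these Klre1 rose. Of the other 16 genes 3 rose and 3 fell. Amica1, an adhesion molecule, rose by 1.36 ± 0.16, and Gpr55, a lipid receptor, fell by 1.90 on the log2 scale along the L mark. The 4 rises were 2 when any of the 4 libraries was left out. Of 7 tested Ly6 antigens Ly6c2 and Ly6g5b rose, the latter along the L mark with 41 counts against 3 and with its call lost when any of the 4 libraries was left out. Ly6g5b passed the filter only through the CD4lo libraries.

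Regulatory T cell genes were lower in CD4lo. Foxp3, the defining factor, stood at 1.47 and 1.17 CPM in CD4lo and at 31.7 and 33.3 CPM in DP (-4.57 ± 0.22, edgeR adjusted p = 6.79e-09). The means of the other groups were 1.15 CPM in WT CD8, 78.8 CPM in WT CD4 and 80.7 CPM in CD4hi. Lrrc32, which encodes GARP, the TGF-beta docking receptor of regulatory T cells, had 2 counts in CD4lo and 103 in DP, a ratio of 48.1 in favour of DP (13.0 to 402). Ctla4, an inhibitory receptor, fell from 50.9 and 51.4 CPM to 12.7 and 14.3 CPM (-1.93 ± 0.11). Nrp1, neuropilin, fell by 2.01 on the log2 scale, and Ikzf2, which encodes Helios, by 0.90. Of 20 listed genes 19 were tested, 11 fell and none rose (median -1.42), against 3.64% of all tested genes that fell. Il2ra, the gated CD25 chain, was at 24.0 and 28.8 CPM in CD4lo and 28.2 and 37.0 CPM in DP and was not called, and Tnfrsf18 was at 0.15 ± 0.14. Tnfrsf9, also among the 11, lost its call without CD4lo 1 or DP 1.

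Follicular helper genes were lower in CD4lo as well. Tox2, a factor of follicular helper cells, stood at 0.670 and 1.76 CPM in CD4lo and at 14.3 and 12.1 CPM in DP (-3.53 ± 0.35). Il21, their cytokine, had 1 count in CD4lo and 73 in DP, a ratio of 68.2 in favour of DP (11.9 to 2730). Cxcr5, the receptor for entry into B cell follicles, fell from 27.4 and 25.8 CPM to 6.43 and 7.83 CPM (-1.92 ± 0.22), below the mean of 14.0 CPM in WT CD8. Cd200, an inhibitory surface ligand, fell by 1.96 on the log2 scale, Icos, a costimulatory receptor, by 0.91, and Bcl6, the defining factor, by 0.77. The call of Bcl6 was lost without CD4lo 1 or DP 1, and that of Btla without DP 2. Of 11 tested follicular helper genes 7 fell and none rose (median -0.77), against 3.64% of all tested genes that fell. Pdcd1, which encodes PD-1, was at 9.65 and 10.2 CPM against 13.5 and 16.5 CPM (-0.60 ± 0.19, edgeR adjusted p = 0.0761).

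Of 13 tested genes listed as inhibitory receptors 5 fell and none rose (median -0.44), against 3.64% of all tested genes that fell. Ctla4, Btla and Cd200, which encodes a ligand, are among the 5. Tigit stood at 2.14 and 2.55 CPM in CD4lo and 19.3 and 19.5 CPM in DP (-3.06 ± 0.26), and Lag3 at 4.15 and 4.70 CPM against 24.8 and 26.1 CPM (-2.53 ± 0.21). Of 18 tested TNF ligands and receptors 5 fell and 1 rose (median -0.21). Tnfsf11, which encodes RANKL, fell by 2.20 on the log2 scale and Tnfrsf4, which encodes OX40, by 1.42. The 5 falls were 3 without CD4lo 2 and 3 without DP 2. Other large falls under the rule for named genes were Nrn1, which encodes the secreted protein neuritin, from 9.40 and 11.6 CPM to 0.536 and 0.196 CPM (-4.66 ± 0.47), and Rgs16, a regulator of G protein signals (-3.03 ± 0.31). Axl, a receptor tyrosine kinase, fell by 2.92 and Capn3, a calpain protease, by 2.87 on the log2 scale.

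Genes induced by T cell receptor signals were lower in part, 6 of 22 falling and 2 rising (median -0.16). Irf4 stood at 11.4 and 13.9 CPM in CD4lo and at 43.3 and 45.8 CPM in DP (-1.83 ± 0.12), Egr2 at 10.2 and 12.5 CPM against 26.8 and 27.1 CPM (-1.26 ± 0.16), and Nr4a1 at 19.3 and 24.1 CPM against 32.0 and 30.8 CPM (-0.55 ± 0.13). Cd83, also a marker of activated B and dendritic cells, fell by 2.62 on the log2 scale. The rises were Fos (0.45 ± 0.11) and Fosb (0.69 ± 0.18), the latter lost when any of the 4 libraries was left out. The call of Fos was lost without CD4lo 1 or DP 1, and that of Nr4a1 without CD4lo 1, DP 1 or DP 2. Of 26 genes of the receptor complex and its kinases 4 fell and none rose (median -0.08): Trac, Fyn, Lat and Themis, by 0.48, 0.31, 0.27 and 0.33 on the log2 scale. The count of falls was 0 without CD4lo 2, without DP 1 or without DP 2, and 2 without CD4lo 1, with library totals as the scale or in the likelihood ratio test.

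Mki67, the proliferation antigen, stood at 68.1 and 54.0 CPM in CD4lo and 113 and 120 CPM in DP (-0.92 ± 0.11), and Top2a, topoisomerase, at 41.1 and 28 CPM against 62.4 and 59.3 CPM (-0.79 ± 0.16). Of 31 tested cell cycle genes 6 fell and none rose (median -0.64), against 3.64% of all tested genes that fell, and 2 fell when any of the 4 libraries was left out and with DESeq2. A count of 2 among 31 is too near the share over all genes to be a result about the list. Cenpe and Cenpf lost their calls in each of these settings, Top2a without CD4lo 2 or DP 1, and Uhrf1 without CD4lo 1, without DP 2 and with DESeq2. Of 52 tested replication-dependent histone genes 12 fell and none rose (median -0.60), with 5 without CD4lo 1, 5 without DP 2 and 7 with DESeq2. Of these 52 histone genes, 2 passed the filter only through the DP libraries, with 1 of the 2 falling. Of the other 50 histone genes 11 fell, against 3.64% of all tested genes. Hist1h2ac fell from 10.0 and 7.91 CPM to 1.47 and 2.94 CPM (-2.08 ± 0.33), and since histone copies are near identical, the division of reads among them is uncertain. Of 8 tested genes of recent thymic emigrants and recombination 4 fell (median -0.67). Dntt, the terminal transferase of developing lymphocytes, stood at 5.76 and 5.29 CPM in CD4lo and at 16.1 and 17.9 CPM in DP (-1.62 ± 0.21), while the call of Itm2a was lost when any of the 4 libraries was left out.

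**Figure D4:**
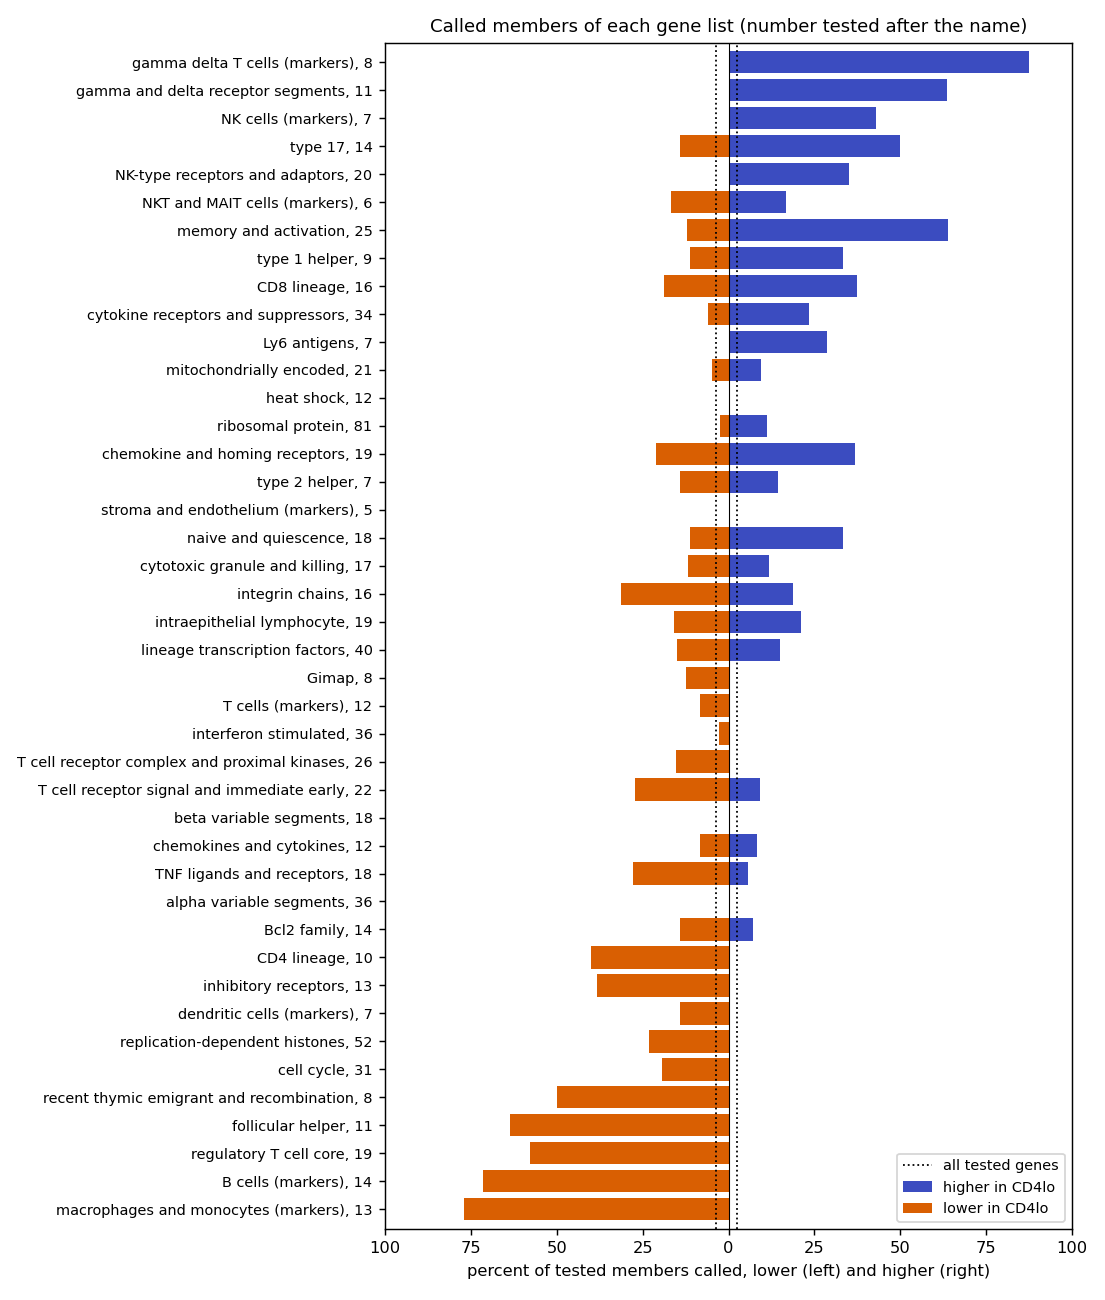
Share of the tested members of each gene list that were called lower (orange, to the left) or higher (blue, to the right) in CD4lo than in DP, in percent (x axis), with the number tested after each name. Dotted lines mark the shares over all tested genes, 3.64% lower and 2.55% higher. Gamma delta and NK-type lists reach far to the right, in part through members that passed the filter only in CD4lo, and the regulatory, follicular helper, B cell and macrophage lists far to the left.

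Transcripts of B cells and of macrophages were higher in the DP libraries. H2-Ab1, an MHC class II chain, stood at 6.43 and 9.20 CPM in CD4lo and 40.7 and 45.8 CPM in DP (-2.50 ± 0.21), and Cr2, the B cell complement receptor, at 2.14 and 0.979 CPM against 7.37 and 8.05 CPM (-2.21 ± 0.41). Of 14 B cell markers 10 fell and none rose (median -1.91), against 3.64% of all tested genes that fell, with Cd22 following the L mark. The summed level of the B cell markers was 72.9 and 89.9 CPM in CD4lo and 274 and 323 CPM in DP. Lyz2, the lysozyme of myeloid cells, stood at 20 and 24.3 CPM in CD4lo and 94.5 and 103 CPM in DP (-2.18 ± 0.12). Csf1r, the macrophage growth factor receptor, fell by 2.97 on the log2 scale and Dnase1l3, a nuclease of macrophages and dendritic cells, by 3.15.

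Of 17 macrophage and monocyte markers 13 were tested and 10 fell. Of these 13, 4 passed the filter only through the DP libraries, with 2 of the 4 falling, and of the other 9 genes 8 fell and none rose. The number of falls was 6 without DP 1 and 5 without DP 2. Of the 10, 5 followed the L mark: C1qa, C1qb, C1qc, Mpeg1 and Cybb. C1qc lost its call without CD4lo 1 or DP 2, and C1qa without CD4lo 2, DP 1 or DP 2. Without the genes that follow the mark 4 falls were called. The summed level of the markers was 185 and 200 CPM in CD4lo and 374 and 391 CPM in DP, and Fcgr1 was at 0 in CD4lo. Of 10 dendritic cell markers 7 were tested and Irf8 fell (-1.27 ± 0.20), with summed levels of 35.4 and 42.1 CPM against 63.0 and 62.3 CPM and with Clec9a and Clec10a at 0 in CD4lo. Between CD4lo and DP, these sums moved together with the regulatory and follicular helper genes and with Irf4, Cd83 and Axl. B cell markers summed to 382 and 400 CPM in WT CD8 and to 111 and 83.3 CPM in CD4hi. Macrophage markers summed to 206 and 219 CPM in WT CD8 and to 244 and 236 CPM in CD4hi. Mean Foxp3 was 1.15 CPM in WT CD8 and 80.7 CPM in CD4hi. The part of the sums in those results was not tested.

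**Figure D5:**
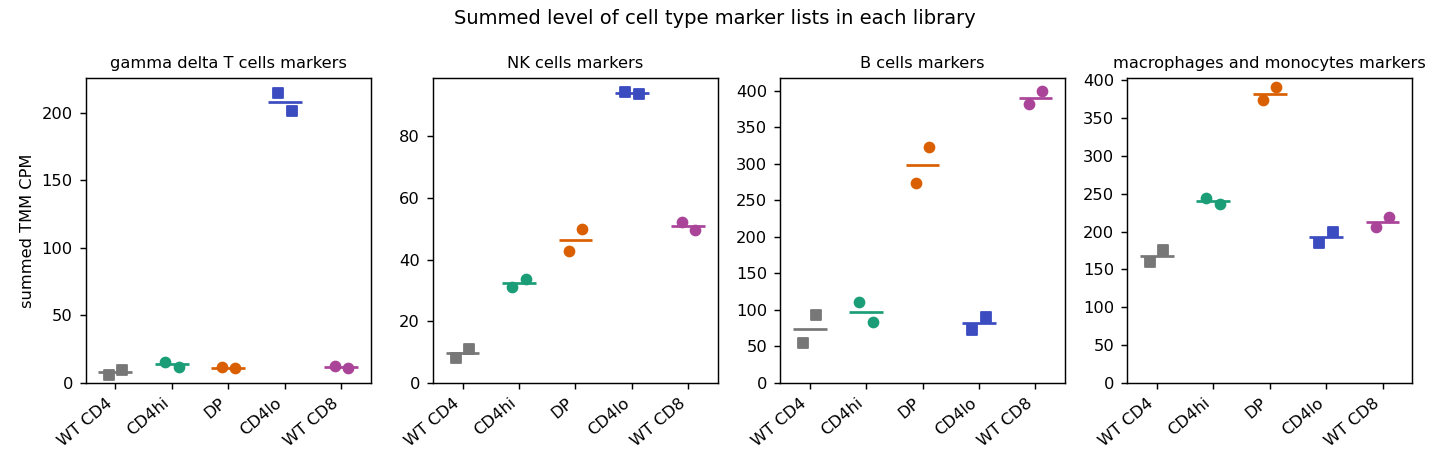
Summed level of 4 lists of cell type markers in each library (TMM CPM, y axis from 0) by group (x axis). Points are libraries, squares those whose titles carry the L mark, and bars the mean of 2 libraries. Gamma delta T cell markers sum to 215 and 201 CPM in CD4lo and 11.8 and 10.6 CPM in DP, and B cell markers to 72.9 and 89.9 CPM against 274 and 323 CPM.

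Other marker lists held few called genes. Of 4 tested plasma cell markers 1 fell, Irf4, and the markers summed to 37.7 and 40.1 CPM in CD4lo and 65.4 and 69.6 CPM in DP. Of 4 tested thymocyte markers Dntt and Themis fell, with sums of 148 and 133 CPM against 181 and 186 CPM. Ptcra was at 0 in both groups. Rag1 and Rag2 were at 0 in DP but not in CD4lo, where Rag1 had 9 counts. Of 2 tested platelet markers Itgb3 rose, as given above. None of the 4 tested erythroid markers, the 5 tested stroma and endothelium markers or the 1 tested neutrophil marker was called by edgeR's quasi-likelihood test or DESeq2, and none had an unadjusted p under 0.05. Among the 12 general T cell markers Trac fell. Ddx3y, a gene of the Y chromosome, was at 126 and 106 CPM in CD4lo and 107 and 96.9 CPM in DP, and none of the 4 tested sex-linked genes was called by either tool or had an unadjusted p under 0.05.

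Interferon-stimulated, heat shock and Gimap genes showed few or no calls. Of 36 interferon-stimulated genes 1 fell, Gbp3 (-0.44 ± 0.10), whose call was lost when any of the 4 libraries was left out, and the list's median was -0.07. Ifit3 was at 77.9 and 84.8 CPM in CD4lo and 83.8 and 76.8 CPM in DP. None of 12 tested heat shock genes was called by edgeR's quasi-likelihood test or DESeq2 (median 0.13, 1 gene higher at an unadjusted p under 0.05), and 1 of 8 Gimap genes fell, Gimap7 (-0.55 ± 0.08, along the L mark). Of 81 tested cytoplasmic ribosomal protein genes 9 rose and 2 fell (median 0.11), and 1 rose without CD4lo 2, 1 without DP 1 and 4 without DP 2. Rpl23a rose from 726 and 739 CPM to 1120 and 1100 CPM (0.60 ± 0.07). Of 21 tested mitochondrially encoded genes 2 rose and 1 fell (median 0.14). The changes of mt-Tg and mt-Tw, both transfer RNA genes, followed the L mark, with the call of mt-Tw lost when any of the 4 libraries was left out, and mt-Co2 rose by 0.33 ± 0.07 and lost its call without DP 1. The rises of the mitochondrial list were 4 without CD4lo 1 and 4 with library totals as the scale.

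The wild-type libraries give a reference for how CD4 and CD8 cells differ, and their levels do not enter the fold change of CD4lo over DP, although they share its filter and estimate of spread. In WT CD8 against WT CD4, 492 genes (4.04%) were called higher and 566 (4.64%) lower with a fold of at least 2. Of the 492 higher in WT CD8, 43 (8.74%) rose and 127 (25.8%) fell in CD4lo relative to DP (median -0.26). Of the 566 lower in WT CD8, 53 (9.36%) rose and 73 (12.9%) fell (median -0.07). The L mark lies with WT CD4 and with CD4lo, and 138 of the 492 and 58 of the 566 genes follow it. Without them, 43 (12.1%) of 354 rose and 29 (8.19%) fell in the first list (median 0.04), and 15 (2.95%) of 508 rose and 73 (14.4%) fell in the second (median -0.16). By construction this removes only genes that move opposite ways in the 2 comparisons, and the part of the mark in the counts was not tested.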

How the data were processed

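RNA of 10 libraries of sorted spleen T cells was sequenced from 10 ng of total RNA with a directional kit and depletion of ribosomal cDNA, per the labels' protocols. The deposited values are whole-number counts of reads for 34573 gene symbols. The submitters' processing notes name TopHat2, HTSeq and the build mm10 without saying what each did. Versions, annotation and the strand setting are not given in the sources used here, so a gene and an antisense partner may share reads.

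The filter filterByExpr, given the groups, passed 12193 genes, which hold 99.3% to 99.8% of a library's counts. After TMM scaling, 1 edgeR 4.0.16 quasi-likelihood model by group was fitted to all 10 libraries (R 4.3.3, limma 3.58.1) with 5 residual degrees of freedom. CD4lo minus DP was tested two-sided with Benjamini-Hochberg adjustment over all tested genes at 0.05, after the fit was tested on simulated data. No exact permutation test was run, because 2 libraries against 2 allow no p below 0.333. Positions and gene types are from GENCODE M21 (11771 tested genes matched). Where a group had 1 to 3 counts, the ratio of scaled counts is given with an exact 95% interval, which covers counting error only.

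Named genes are Zbtb7b, Cd4, Cd8a, Cd8b1 and Runx3, then the 15 highest and 15 lowest changes among called genes with a mean of at least 10 CPM in the higher group, then up to 4 called members of each gene list at 5 CPM or more, and all gamma delta T cell markers. Results of a few of these genes are not reported here. Further list members named with their values were chosen after these were seen. The members and the 48 gene lists were chosen with earlier results of these data known. Listed symbols were matched to older symbols in the table where it uses them, and those without a row were not analysed here. The 15 alternatives included DESeq2 1.42.0, other scalings and filters, and each library left out.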

Additional observations from a re-analysis of the deposited data

How the results depend on the processing

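Without the genes that follow the L mark, an alternative chosen after seeing the data, 487 genes were called (205 higher, 282 lower), 221 with a fold of at least 2 and 149 of the wild-type lineage genes instead of 296. Requiring a mean of 50 counts left 162 calls with a fold of at least 2 and 169 wild-type lineage calls, since fewer genes were tested. Members called under it fell to 3 for NK-type receptors, 2 for gamma and delta segments, 3 rises for type 17, 1 rise for integrin chains and 1 for NK cells, 6 falls for B cells and 4 for macrophages. Leaving out 1 library at a time gave 371 to 476 calls, 152 to 201 higher, 219 to 275 lower, 252 to 303 with a fold of at least 2 and 205 to 229 wild-type lineage calls. The lone library of a group is then assumed to vary like the other groups. The total numbers of calls stayed within 1.5 times in the other settings: DESeq2 scaling gave 760 calls, library totals 740, no AC087541.1 or mitochondrial genes 749, DESeq2's Wald test 517 (509 shared), edgeR's likelihood ratio test 949, no filter 946, only the 4 CD4lo and DP libraries 1002, and only protein-coding genes 634, also chosen after seeing the data. Counts within gene lists moved further. Rises of NK-type receptors numbered 7, but 13 with only the 4 libraries and 11 in the likelihood ratio test. Without a filter 17 ribosomal protein genes rose instead of 9, and 6 mitochondrially encoded genes instead of 2, which was 5 with only the 4 libraries. Falls of TNF ligands and receptors numbered 3 instead of 5 with DESeq2 and without the genes that follow the L mark. The latter setting also left 5 rises instead of 8 for cytokine receptors, 1 instead of 3 for integrin chains and 1 fall instead of 3 for intraepithelial lymphocyte genes. Among protein-coding genes 4 gamma delta T cell markers rose instead of 7 and none of the gamma and delta segments, since segments have other gene types.

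Library numbers are not said to pair samples, and with 2 pairs they were taken only as names. The deviations of same-numbered libraries correlated at r = 0.119 over 8079 genes, and a replicate block gave 641 calls, 639 of them shared with the main result.

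Of 119 called genes under the naming rule, 82 kept their call and direction under every alternative that tested them (47 of these under all 15, the others under 12 to 14), 37 lost the call under at least 1, and none reversed. Genes not called whose change took the other sign were near 0. Over the fits without 1 library, Hsp90ab1 ran from -0.04 to 0.02, Trav14d-1 from -0.44 to 0.02, Hba-a2 from -0.37 to 0.20 and Zbtb7b from -0.01 to 0.38, and Hsp90ab1 was at 0.00 with library totals. The cause was not tested. Genes under 0.587 CPM rest on fewer than 3 counts in the shallowest library.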
